A study of Homo sapiens with 32 samples.

Results

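Ribosome biogenesis and RNA polymerase I genes were followed in MM.1S, a cell line from human multiple myeloma, over 4 treatments. The set was a list of 38 genes. Like the other gene lists used below, it was chosen with earlier results of these data known. It covered RNA polymerase I and its factors and the proteins of small nucleolar ribonucleoproteins (snoRNPs). Assembly factors of the small and large ribosomal subunits and other abundant nucleolar proteins were also included. All 38 were found by symbol among the 24249 gene IDs of the deposited table, and all 38 passed the filter on low values that left 15827 genes for testing. Cells received a pulse of 1 h with carfilzomib (Cfz), which blocks the proteasome, or with the vehicle DMSO, and then 12 h with 10 µM all-trans retinoic acid (ATRA), a vitamin A derivative that binds nuclear retinoic acid receptors, or with DMSO. Total RNA was sequenced from 1 library of cells given the carfilzomib pulse and then ATRA (ATRA+Cfz), 3 libraries given the DMSO pulse and then ATRA (ATRA), 1 library given the carfilzomib pulse and then DMSO (Cfz) and 3 libraries given DMSO both times (DMSO). No dose of carfilzomib could be taken from the labels. The cells come from 1 line, and separate cultures are not named in the labels, so the spread behind each p-value may be a technical one between libraries.

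Ribosomes are built in the nucleolus. RNA polymerase I copies the ribosomal DNA into 1 long precursor RNA, snoRNPs guide its chemical modification, and the small subunit processome and a series of large subunit particles fold, cut and trim it while ribosomal proteins join. Plasma cells and the myelomas that derive from them secrete large amounts of immunoglobulin, and are known for a high demand for protein synthesis and for their sensitivity to proteasome inhibitors.

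Depth was 14136937 to 17155331 reads per library, and a member had 335 to 22898 reads in a library, and counting error is part of the spread between libraries. Values are FPM, fragment counts divided by the total of the library and set to a sum of 1000000, and they are not corrected for gene length, so that levels can be compared between treatments and not between genes. Differences are on the log2(FPM + 0.5) scale, and a gene was called at an adjusted p under 0.05 in limma's test over all genes tested (Benjamini-Hochberg). The lone ATRA+Cfz and Cfz libraries have no replicate check and were assumed to vary like the ATRA and DMSO libraries. DMSO 3 stood apart from the other 2 controls: the chi-square per degree of freedom of its reads was 10.6 against DMSO 1 and 11.1 against DMSO 2, and 1.81 between DMSO 1 and DMSO 2. Mitochondrially encoded genes held 5.72% of reads in the ATRA+Cfz library, 3.67% to 3.89% in ATRA libraries, 5.43% in the Cfz library and 5.85% in DMSO 3, against 4.12% and 4.09% in the other DMSO libraries, and the part of this in the members' differences is shown only by the values scaled without those genes. All 9 plasma cell markers were in the table, at a summed 8051 to 11087 FPM, and the 4 marker lists for epithelial, stromal, myeloid and for T and NK cells each summed to at most 3.67 FPM in any library.

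ATRA raised most of the set. With ATRA against DMSO, 22 of the 38 members rose and 3 fell, against 21.3% of all genes tested that rose and 27.4% that fell. The median difference of the members was 0.13 on the log2 scale, beside a median of -0.029 over all genes tested. All 3 ATRA libraries lay above all 3 DMSO libraries for 25 members (25.5% of all genes) and below them for 6 (31.1% of all genes), and the groups overlapped for 7. The changes were small in size, from a change of -17.4% for UBTF to one of 48.2% for RRP12. Without DMSO 3, 25 members rose and 5 fell, against 22.3% and 29.6% of all genes.

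After the carfilzomib pulse alone few members were called, and the direction of the calls depended on the scaling. In the Cfz library 2 members were higher than in DMSO libraries and 4 were lower, against 7.94% and 17.0% of all genes tested. The share of higher genes among all calls was 31.8% here, 47.9% with median-ratio scaling, 42.2% with edgeR and 53.1% with DESeq2, and the members split 7 higher and 1 lower with median-ratio scaling. Without DMSO 3 the members split 10 higher and 8 lower, against 10.6% and 23.8% of all genes.

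With the combination, members were called in both directions. In the ATRA+Cfz library 12 members (31.6%) were higher and 13 (34.2%) lower than in DMSO libraries, against 20.0% and 30.5% of all genes tested. The share that was lower was near that of all genes. The median difference of the members was 0.022. Counts higher and lower were 14 and 9 with median-ratio scaling, 15 and 8 with TMM scaling and edgeR, and 10 and 7 with DESeq2. Without DMSO 3 the counts were 15 higher and 13 lower, against 22.2% and 33.3% of all genes. Against the ATRA libraries, none of the 38 was called higher and 16 were called lower in the ATRA+Cfz library, against 10.6% and 20.2% of all genes. At an unadjusted p under 0.05 limma also found 0 members higher than in ATRA libraries, and edgeR and DESeq2 called 0. Against the Cfz library, 4 members were higher and 7 lower in the ATRA+Cfz library, against 12.8% and 17.6% of all genes. Without DMSO 3, which enters these comparisons only through the estimate of the spread, the counts were 0 higher and 25 lower against ATRA libraries (14.5% and 25.9% of all genes) and 8 higher and 12 lower against the Cfz library (17.8% and 21.9% of all genes). The comparisons with DMSO share the DMSO libraries, and those of the ATRA+Cfz library share that library.

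**Figure D1:**
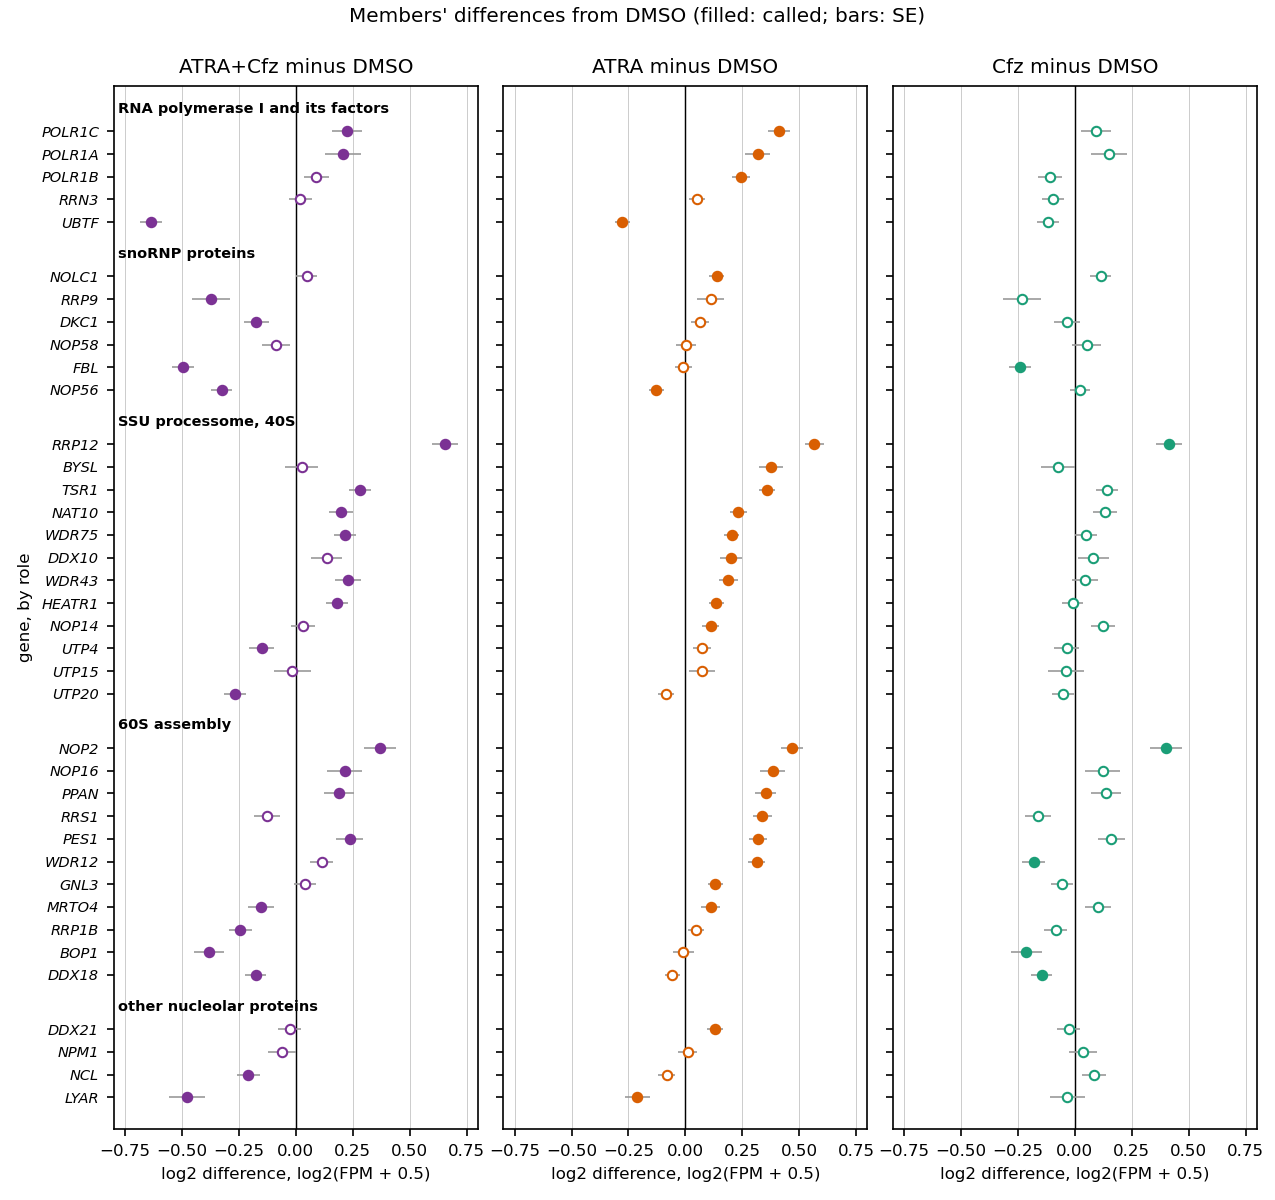
Log2 difference of each of the 38 members from the DMSO mean, in log2(FPM + 0.5) (x axis), for the ATRA+Cfz, ATRA and Cfz libraries, with members grouped by role and ordered by the ATRA difference (y axis). Points are filled where limma's adjusted p was under 0.05, and bars are the SE. ATRA gave 22 filled points above 0 and 3 below, ATRA+Cfz 12 and 13, and Cfz 2 and 4.

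The promoters of the members were searched for short motifs because the set rose with ATRA as a group, with motifs chosen after the values were known. RefSeq promoter entries on GRCh38.p14 were found for 31 of the 38 members, and the 250 bases before the start site were read on both strands. CACGTG, the palindromic E-box bound by MYC and related factors, stood in 14.7% of the promoters of 116 further genes of the pathway. The share was 4.76% for 63 cytosolic ribosomal protein genes, 11.2% for genes tested and 7.73% for all promoters. Among the members it stood in the promoters of 5 of the 31 (16.1%). The matches are shown as 30 bases each with CACGTG in capitals:
DDX21, chr10:68956604-68956633, plus strand: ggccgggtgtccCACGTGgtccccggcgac
LYAR, chr4:4290068-4290097, minus strand: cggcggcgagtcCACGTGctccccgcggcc
NAT10, chr11:34105599-34105628, plus strand: tttaatgcgcttgcgCACGTGctgtctacc
UTP20, chr12:101280075-101280104, plus strand: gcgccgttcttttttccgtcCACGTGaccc
UTP4, chr16:69132619-69132648, plus strand: tgagagcgcgcgcgCACGTGgggccggggc
The first base of the motif lay 31 bases before 1 start site of DDX21 and 64 before 1 start site of LYAR. Another start site of each of these genes had no match. It lay 15 bases before the start site in NAT10, 10 in UTP20 and 16 in UTP4. With ATRA, 2 of these 5 genes rose (DDX21 and NAT10) and 1 fell (LYAR), while of the 26 members with a promoter entry and no CACGTG, 17 rose and 2 fell.

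TGCGCA is also a palindrome and the core of the recognition sequence of nuclear respiratory factor 1 (NRF1). It stood in 16.4% of the promoters of the 116 further genes of the pathway. The share was 20.6% for the 63 cytosolic ribosomal protein genes, 13.6% for genes tested and 8.28% for all promoters. Among the members it stood in the promoters of 9 (29.0%). With ATRA, 4 of these 9 rose (DDX10, NAT10, PPAN and WDR43), LYAR fell and DKC1, NPM1, UTP4 and UTP20 were not called. Of the 22 members with a promoter entry and no TGCGCA, 15 rose and 2 fell. In NAT10 it overlaps the E-box shown above. As examples, PPAN, which rose, holds no TGCGCA before 1 of its start sites. Before another it holds the motif at both of the places shown here in capitals, 80 and 20 bases before the site:
PPAN, chr19:10106270-10106299, plus strand: gaggccacctagTGCGCAggcccgcctgat
PPAN, chr19:10106330-10106359, plus strand: ccggaagtgagcTGCGCAgcgccggaagcg
In WDR43, which rose, it begins 11 bases before the start site, and in LYAR, which fell, 23 bases before 1 of its start sites and 156 before another:
WDR43, chr2:28894637-28894666, plus strand: cgccccgcgccggtgcgccTGCGCAcggac
LYAR, chr4:4290160-4290189, minus strand: gcgtggccgcggTGCGCAggcgcgctgggt
AGGTCA, the consensus half-site of nuclear receptors such as the retinoic acid receptors, was found in 9.68% of the members' promoters, 12.3% of the promoters of genes tested and 14.6% of all promoters. TATAAA was found in 3.23%, 8.29% and 13.0%. A match describes the letters of the promoter only.

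The 3 RNA polymerase I subunits among the members rose with ATRA while UBTF fell. Of 16 further genes of RNA polymerase I and its factors, other subunits included, 3 rose and 4 fell, against 21.3% and 27.4% of all genes. POLR1A, the largest and catalytic subunit, had 110.2 FPM in the ATRA+Cfz library, 113, 122 and 122 FPM in the ATRA libraries, 106 FPM in the Cfz library, and 103, 95.1 and 88.7 FPM in the DMSO libraries. All ATRA libraries lay above all DMSO libraries, and the ATRA+Cfz and Cfz libraries lay between the groups. Its ATRA difference was 0.32 ± 0.056 (SE, adjusted p = 0.000569). POLR1B, the second largest subunit, had 127 FPM in the ATRA+Cfz library, 139, 142 and 145 FPM in the ATRA libraries, 111 FPM in the Cfz library, and 119, 116 and 124 FPM in the DMSO libraries. The Cfz library was below all DMSO libraries and the ATRA+Cfz library between DMSO and ATRA libraries. Its ATRA difference was 0.25 ± 0.038 (SE, adjusted p = 0.000228). POLR1C, which RNA polymerases I and III share, had 39.7 FPM in the ATRA+Cfz library, 44.7, 45.4 and 46.0 FPM in the ATRA libraries, 36.2 FPM in the Cfz library, and 34.3, 33.3 and 34.2 FPM in the DMSO libraries. It had the largest ATRA difference of the polymerase genes, at 0.41 ± 0.047 (SE, adjusted p = 1.95e-05), with no overlap between ATRA and DMSO libraries.

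POLR1C in the ATRA+Cfz library stayed above DMSO, at 0.22 ± 0.066 (SE, adjusted p = 0.0145), and POLR1A at 0.21 ± 0.079 (SE, adjusted p = 0.0473), a call that was lost when DMSO 2 or any of the ATRA libraries was left out. POLR1B differed from DMSO by 0.09 ± 0.054 (SE, adjusted p = 0.188) there and was not called. The Cfz library gave no limma call for any of the 5 genes, and edgeR and DESeq2 gave none, while 1 gene (UBTF) was lower at an unadjusted p under 0.05. POLR1B in the ATRA+Cfz library was called higher than in the Cfz library, at 0.20 ± 0.066 (SE, adjusted p = 0.0397), and lower than in ATRA libraries, at -0.15 ± 0.054 (SE, adjusted p = 0.0493), both close to the threshold and both lost under other settings.

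The 2 factors that place the polymerase at the ribosomal DNA did not follow these subunits. RRN3, the initiation factor that links the polymerase to its promoter complex, had 96.9 FPM in the ATRA+Cfz library, 100.1, 98.8 and 98.8 FPM in the ATRA libraries, 89.5 FPM in the Cfz library, and 95.4, 94.7 and 97.0 FPM in the DMSO libraries. Its ATRA libraries lay above the DMSO libraries by 0.053 ± 0.036 (SE, adjusted p = 0.25), which was not called, with a 95% interval of -0.025 to 0.13. The Cfz library was below all others. The pseudogenes RRN3P1 and RRN3P3, which could share reads with RRN3, reached 6.65 and 6.68 FPM. UBTF, the DNA-bending factor that coats the ribosomal DNA, had 132 FPM in the ATRA+Cfz library, 174, 165 and 169 FPM in the ATRA libraries, 189 FPM in the Cfz library, and 205, 204 and 208 FPM in the DMSO libraries. The groups did not overlap and were ordered from the ATRA+Cfz library, the lowest, to the DMSO libraries, the highest. UBTF fell with ATRA, at -0.28 ± 0.035 (SE, adjusted p = 4.3e-05) and was the most reduced member in the ATRA+Cfz library, at -0.63 ± 0.049 (SE, adjusted p = 7.93e-07). The ATRA+Cfz library was also lower than the ATRA libraries, at -0.36 ± 0.049 (SE, adjusted p = 0.000285), and than the Cfz library, at -0.52 ± 0.06 (SE, adjusted p = 6.68e-05), whereas the Cfz library gave -0.12 ± 0.049 (SE, adjusted p = 0.101) against DMSO, which was not called.

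**Figure D2:**
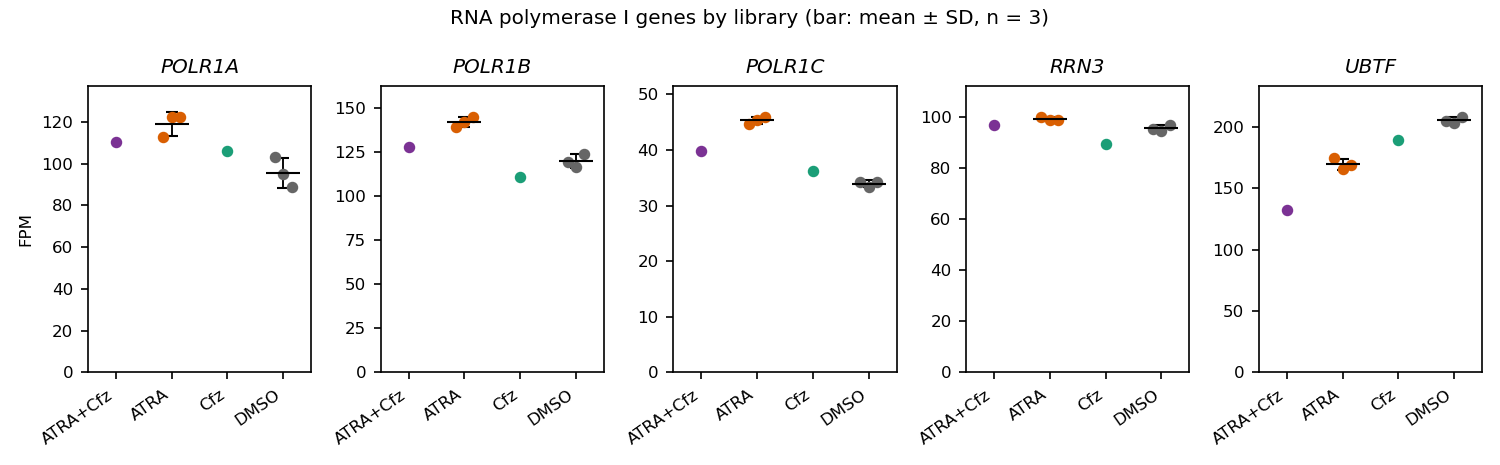
FPM (y axis, from 0) of 5 RNA polymerase I genes in each library of the ATRA+Cfz, ATRA, Cfz and DMSO groups (x axis), with the mean and SD of the groups of 3 as bars. POLR1A, POLR1B and POLR1C are highest in ATRA libraries, and UBTF is lowest in the ATRA+Cfz library at 132 FPM.

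Of 6 snoRNP protein genes, 1 rose and 1 fell with ATRA, against 21.3% and 27.4% of all genes tested. In the ATRA+Cfz library 4 were lower than in DMSO libraries and none was higher, against 30.5% and 20.0% of all genes. The median difference there was -0.25. The count lower was 3 with edgeR and 2 with DESeq2. None of the 6 was higher by edgeR, DESeq2 or limma's unadjusted p. Of 14 further snoRNP genes, 2 were higher and 3 lower in the ATRA+Cfz library than in DMSO libraries. FBL (fibrillarin), the methyltransferase of box C/D snoRNPs, had 132 FPM in the ATRA+Cfz library, 185, 188 and 182 FPM in the ATRA libraries, 157 FPM in the Cfz library, and 181, 186 and 191 FPM in the DMSO libraries. ATRA and DMSO libraries overlapped, with a difference of -0.0081 ± 0.035 (SE, adjusted p = 0.872), and the Cfz and ATRA+Cfz libraries lay below all of them. FBL was lower than in DMSO libraries in the Cfz library, at -0.24 ± 0.05 (SE, adjusted p = 0.00503), and in the ATRA+Cfz library, at -0.50 ± 0.05 (SE, adjusted p = 7.08e-06). NOP56, a core scaffold protein of the same particles, had 243 FPM in the ATRA+Cfz library, 275, 282 and 279 FPM in the ATRA libraries, 309 FPM in the Cfz library, and 304, 309.6 and 299 FPM in the DMSO libraries. It fell with ATRA, at -0.13 ± 0.032 (SE, adjusted p = 0.00626), with no overlap between the groups, and was lower in the ATRA+Cfz library, at -0.32 ± 0.046 (SE, adjusted p = 9.69e-05), while the Cfz library lay within the DMSO range.

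RRP9, a protein of the U3 snoRNP that acts in the processome, had 23.7 FPM in the ATRA+Cfz library, 31.2, 34.7 and 34.3 FPM in the ATRA libraries, 26.2 FPM in the Cfz library, and 31.1, 31.1 and 30.3 FPM in the DMSO libraries. RRP9 was lower in the ATRA+Cfz library than in DMSO libraries, at -0.37 ± 0.083 (SE, adjusted p = 0.00273), while the ATRA difference of 0.11 ± 0.059 (SE, adjusted p = 0.142) was not called. DKC1, the pseudouridine synthase of box H/ACA snoRNPs, averaged 183 ± 5 FPM with ATRA and 175 ± 7.1 FPM with DMSO (SD, n = 3 each), and in the ATRA+Cfz library it was lower than in ATRA libraries, at -0.24 ± 0.056 (SE, adjusted p = 0.00825). NOP58, the partner of NOP56, had no call in any comparison, with an ATRA difference of 0.0031 ± 0.044 (SE, adjusted p = 0.962). NOLC1, a chaperone of snoRNPs, was the snoRNP gene that rose with ATRA, at 428 ± 5.3 FPM against 389 ± 8.2 FPM with DMSO (SD, n = 3 each) and a difference of 0.14 ± 0.032 (SE, adjusted p = 0.00404).

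The small subunit branch rose broadly. Of 12 processome and 40S maturation genes, 9 rose and none fell with ATRA, against 21.3% and 27.4% of all genes tested. The median difference was 0.19. For the falls with ATRA, limma gave 1 at an unadjusted p under 0.05 (UTP20), and edgeR and DESeq2 gave 0. In the ATRA+Cfz library 6 were higher and 2 lower than in DMSO libraries, against 20.0% and 30.5% of all genes. These counts were 7 and 1 by edgeR and 6 and 1 by DESeq2. RRP12, a factor for maturation and export of the small subunit, had 112 FPM in the ATRA+Cfz library, 103, 107 and 105 FPM in the ATRA libraries, 94.2 FPM in the Cfz library, and 72.6, 71.6 and 67.6 FPM in the DMSO libraries. All libraries given ATRA, carfilzomib or both lay above all DMSO libraries. RRP12 had the largest ATRA difference of the set, at 0.57 ± 0.041 (SE, adjusted p = 4.69e-07), or 48.2% higher, and it was higher by 0.41 ± 0.058 (SE, adjusted p = 0.000468) in the Cfz library and by 0.66 ± 0.058 (SE, adjusted p = 2.29e-06) in the ATRA+Cfz library. TSR1, a late assembly factor that sits on the 40S precursor, had 226 FPM in the ATRA+Cfz library, 241, 232 and 241 FPM in the ATRA libraries, 205 FPM in the Cfz library, and 182, 189 and 186 FPM in the DMSO libraries. It rose with ATRA by 0.36 ± 0.034 (SE, adjusted p = 4.55e-06) and was higher by 0.28 ± 0.048 (SE, adjusted p = 0.000452) in the ATRA+Cfz library, which fell between the Cfz and the ATRA libraries. TSR1 shares 20.7% of its exon bases with SRR on the other strand.

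BYSL (bystin), also a 40S maturation factor, behaved otherwise. BYSL had 34.1 FPM in the ATRA+Cfz library, 43.5, 43.2 and 44.1 FPM in the ATRA libraries, 31.8 FPM in the Cfz library, and 31.7, 34.2 and 34.6 FPM in the DMSO libraries. The ATRA libraries stood above all others, and the ATRA+Cfz and Cfz libraries lay within the DMSO range. Its ATRA difference was 0.38 ± 0.052 (SE, adjusted p = 9.66e-05), and the ATRA+Cfz library was lower than the ATRA libraries, at -0.35 ± 0.074 (SE, adjusted p = 0.0041). The difference between its ATRA differences with and without the pulse was -0.28 ± 0.1 (SE, adjusted p = 0.191) and was not called.

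Among the genes of the processome subcomplex that links transcription to early cleavage, WDR43, WDR75 and HEATR1 rose with ATRA and UTP4 and UTP15 were not called. WDR43 had 165 FPM in the ATRA+Cfz library, 159, 159 and 163 FPM in the ATRA libraries, 145 FPM in the Cfz library, and 136, 137 and 148 FPM in the DMSO libraries. The ATRA and ATRA+Cfz libraries lay above all DMSO libraries, and the Cfz library lay within them. WDR43 was higher by 0.19 ± 0.041 (SE, adjusted p = 0.00231) with ATRA and by 0.23 ± 0.058 (SE, adjusted p = 0.00602) in the ATRA+Cfz library. WDR75 gave 0.20 ± 0.034 (SE, adjusted p = 0.00039) with ATRA and 0.22 ± 0.048 (SE, adjusted p = 0.00278) in the ATRA+Cfz library. HEATR1 gave 0.14 ± 0.033 (SE, adjusted p = 0.00495) and 0.18 ± 0.046 (SE, adjusted p = 0.00663), and it shares 23.2% of its exon bases with LGALS8 on the other strand. UTP4 differed by 0.074 ± 0.039 (SE, adjusted p = 0.14) with ATRA and was called lower in the ATRA+Cfz library at -0.15 ± 0.055 (SE, adjusted p = 0.0394), a call lost under 11 of the 16 alternatives. UTP15 differed by 0.072 ± 0.056 (SE, adjusted p = 0.323) and had no call in any comparison.

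NAT10, the acetyltransferase of 18S ribosomal RNA, rose with ATRA by 0.23 ± 0.037 (SE, adjusted p = 0.000272) and was higher by 0.20 ± 0.053 (SE, adjusted p = 0.00823) in the ATRA+Cfz library. DDX10, an RNA helicase of the processome, rose with ATRA by 0.20 ± 0.049 (SE, adjusted p = 0.00514) and differed from DMSO by 0.14 ± 0.069 (SE, adjusted p = 0.124) in the ATRA+Cfz library, which was not called. NOP14, a processome scaffold protein, was called with ATRA at 0.11 ± 0.038 (SE, adjusted p = 0.031), a call lost when any of DMSO 1, DMSO 2 or the ATRA libraries was left out. UTP20, a large scaffold of the same particle, ran the other way, at 144 ± 2 FPM with ATRA and 153 ± 2.7 FPM with DMSO (SD, n = 3 each). Its ATRA difference of -0.086 ± 0.034 (SE, adjusted p = 0.0582) was not called, and the ATRA+Cfz library was lower than DMSO libraries, at -0.27 ± 0.048 (SE, adjusted p = 0.000665).

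**Figure D3:**
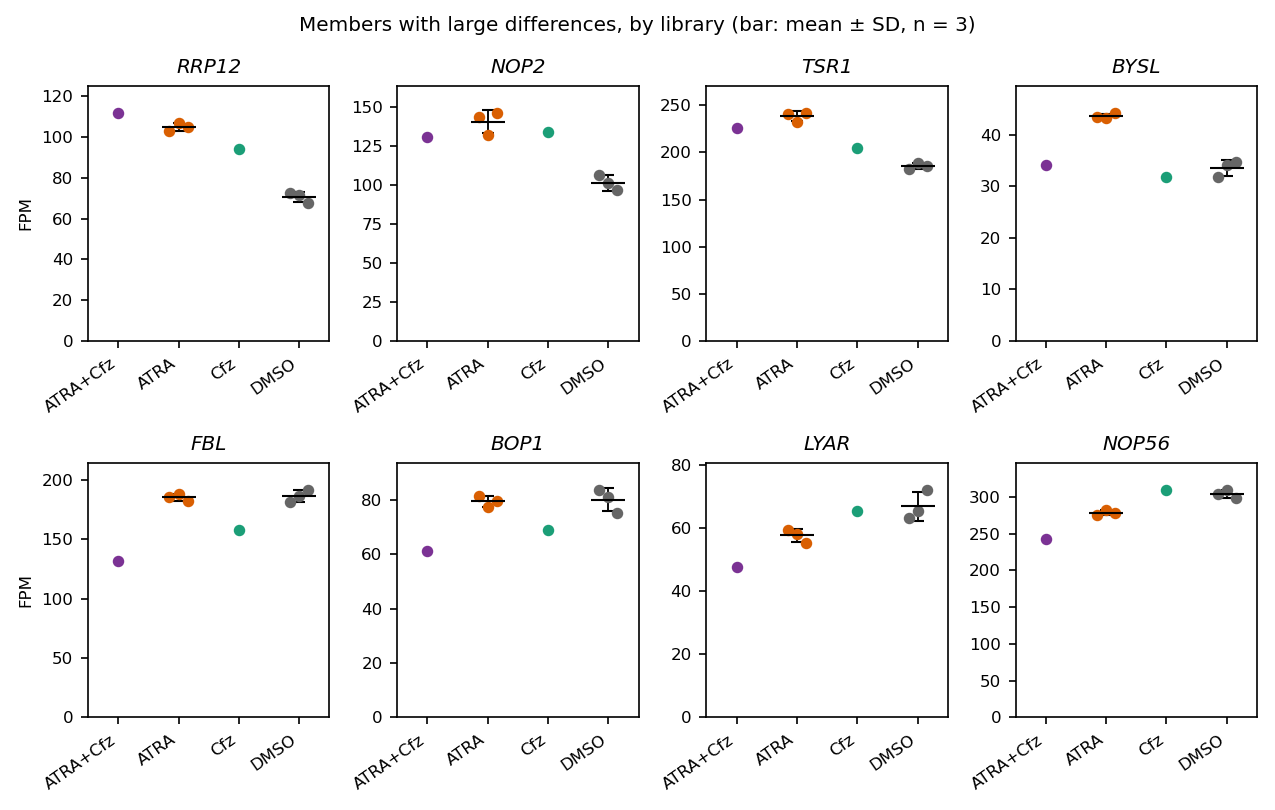
FPM (y axis, from 0) of 8 members with large differences in each library of the ATRA+Cfz, ATRA, Cfz and DMSO groups (x axis), with the mean and SD of the groups of 3 as bars. RRP12, NOP2 and TSR1 are lowest in DMSO libraries, BYSL is highest in ATRA libraries, and FBL, BOP1, LYAR and NOP56 are lowest in the ATRA+Cfz library.

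The large subunit branch also rose with ATRA: 8 of its 11 members rose and none fell, against 21.3% and 27.4% of all genes. The median difference was 0.31, with no fall by edgeR, DESeq2 or limma's unadjusted p. In the ATRA+Cfz library 4 were higher and 4 lower than in DMSO libraries, against 20.0% and 30.5% of all genes. By edgeR 5 were higher and 2 lower, and by DESeq2 3 and 2. NOP2, a methyltransferase of 28S ribosomal RNA, had 131 FPM in the ATRA+Cfz library, 144, 132 and 146 FPM in the ATRA libraries, 134 FPM in the Cfz library, and 106, 101 and 96.4 FPM in the DMSO libraries. All libraries given ATRA, carfilzomib or both lay above all DMSO libraries, and the Cfz library lay within the ATRA range. NOP2 was higher by 0.47 ± 0.049 (SE, adjusted p = 9.65e-06) with ATRA, by 0.40 ± 0.069 (SE, adjusted p = 0.00179) in the Cfz library and by 0.37 ± 0.069 (SE, adjusted p = 0.000848) in the ATRA+Cfz library. NOP2 values are uncertain, because AC006064.6 on the same strand shares 54.4% of its exon bases and because its lanes differed beyond sampling noise in ATRA 2 (114 to 156 FPM) and DMSO 1 (86.5 to 127 FPM). The sum of both genes gave 147 FPM in the ATRA+Cfz library, 151, 145 and 152 FPM in ATRA libraries, 137 FPM in the Cfz library and 122, 116 and 115 FPM in DMSO libraries. On that sum the differences from DMSO were 0.33 in the ATRA+Cfz library, 0.34 with ATRA and 0.23 in the Cfz library, on the log2 scale and not tested.

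BOP1, PES1 and WDR12 form the PeBoW complex, which is needed for processing of the large subunit precursor, and the 3 genes did not move together. BOP1 had 61.3 FPM in the ATRA+Cfz library, 81.5, 77.4 and 79.7 FPM in the ATRA libraries, 68.9 FPM in the Cfz library, and 83.8, 81.0 and 75.4 FPM in the DMSO libraries. Its ATRA and DMSO libraries overlapped, with a difference of -0.0082 ± 0.047 (SE, adjusted p = 0.904), and the ATRA+Cfz library was lower than DMSO libraries, at -0.38 ± 0.067 (SE, adjusted p = 0.000519). PES1 had 119.8 FPM in the ATRA+Cfz library, 129, 123 and 129.6 FPM in the ATRA libraries, 114 FPM in the Cfz library, and 106, 99.7 and 99.5 FPM in the DMSO libraries. All libraries given ATRA, carfilzomib or both lay above all DMSO libraries, with a difference of 0.32 ± 0.041 (SE, adjusted p = 4.97e-05) with ATRA and 0.24 ± 0.058 (SE, adjusted p = 0.00488) in the ATRA+Cfz library. WDR12 had 99.2 FPM in the ATRA+Cfz library, 113, 113 and 117 FPM in the ATRA libraries, 80.7 FPM in the Cfz library, and 90.9, 92.4 and 91.4 FPM in the DMSO libraries. The Cfz library was below all DMSO libraries and the ATRA+Cfz library was above them, so that the ATRA+Cfz library exceeded the Cfz library by 0.29 ± 0.063 (SE, adjusted p = 0.00418). WDR12 rose by 0.31 ± 0.036 (SE, adjusted p = 2.24e-05) with ATRA. In the Cfz library BOP1 was called lower at -0.21 ± 0.067 (SE, adjusted p = 0.0372) and WDR12 at -0.18 ± 0.051 (SE, adjusted p = 0.0242), and both calls were lost with median-ratio or TMM scaling and with edgeR and DESeq2.

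NOP16, a nucleolar assembly factor, had 62.7 FPM in the ATRA+Cfz library, 69.2, 70.2 and 72.4 FPM in the ATRA libraries, 58.8 FPM in the Cfz library, and 53.2, 50.7 and 58.5 FPM in the DMSO libraries. It rose by 0.38 ± 0.054 (SE, adjusted p = 0.000107) with ATRA with no overlap between the groups, and was higher by 0.21 ± 0.076 (SE, adjusted p = 0.0357) in the ATRA+Cfz library. Its ATRA+Cfz call was lost without DMSO 1, DMSO 2 or any of the ATRA libraries (adjusted p = 0.0521 to 0.0863). RRS1, which brings the 5S ribonucleoprotein into the large subunit, had 49.9 FPM in the ATRA+Cfz library, 69.0, 69.9 and 67.8 FPM in the ATRA libraries, 48.6 FPM in the Cfz library, and 54.0, 54.9 and 54.3 FPM in the DMSO libraries. The ATRA libraries stood above the DMSO libraries by 0.34 ± 0.041 (SE, adjusted p = 3.05e-05), whereas the ATRA+Cfz and Cfz libraries lay below them. The ATRA+Cfz library was lower than the ATRA libraries, at -0.46 ± 0.057 (SE, adjusted p = 0.000154). DDX18, an RNA helicase, had 209 FPM in the ATRA+Cfz library, 223, 228 and 231 FPM in the ATRA libraries, 214 FPM in the Cfz library, and 235, 236 and 238 FPM in the DMSO libraries. It was lower in the ATRA+Cfz library, at -0.18 ± 0.046 (SE, adjusted p = 0.00704), and in the Cfz library, at -0.15 ± 0.046 (SE, adjusted p = 0.0382), while the ATRA difference of -0.057 ± 0.032 (SE, adjusted p = 0.177) was not called although the groups did not overlap. The Cfz call of DDX18 was lost under 11 of the 16 alternatives. Its ATRA+Cfz call was lost with median-ratio or TMM scaling, edgeR and DESeq2 (adjusted p = 0.0539 to 0.227).

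PPAN, an assembly factor whose gene is also read through into P2RY11, rose by 0.35 ± 0.046 (SE, adjusted p = 6.06e-05) with ATRA and was higher by 0.19 ± 0.066 (SE, adjusted p = 0.0322) in the ATRA+Cfz library. This PPAN call was lost with DESeq2 and without DMSO 2, ATRA 2 or ATRA 3 (adjusted p = 0.0501 to 0.0816). The read-through gene shares 56.0% of the exon bases of PPAN, and the ATRA difference of the 2 summed was 0.37. GNL3 (nucleostemin), a nucleolar GTPase, rose by 0.13 ± 0.033 (SE, adjusted p = 0.00645) with ATRA and differed by 0.04 ± 0.047 (SE, adjusted p = 0.515) in the ATRA+Cfz library. RRP1B, a nucleolar protein of the large subunit pathway, was not called with ATRA, at 0.048 ± 0.035 (SE, adjusted p = 0.293), and was lower in the ATRA+Cfz library than in ATRA libraries, at -0.29 ± 0.05 (SE, adjusted p = 0.00112), and than in DMSO libraries, at -0.24 ± 0.05 (SE, adjusted p = 0.00158). MRTO4, which holds the place of the ribosomal stalk proteins during assembly, had 67.3 FPM in the ATRA+Cfz library, 81.4, 83.0 and 78.8 FPM in the ATRA libraries, 80.4 FPM in the Cfz library, and 77.0, 73.7 and 74.3 FPM in the DMSO libraries. The ATRA libraries were above the DMSO libraries and the ATRA+Cfz library was below them, with an ATRA difference of 0.11 ± 0.041 (SE, adjusted p = 0.0402), which was not called under 7 of the 18 alternatives, and a difference of -0.27 ± 0.058 (SE, adjusted p = 0.00475) between the ATRA+Cfz library and the ATRA libraries.

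The 4 other nucleolar proteins gave 1 rise and 1 fall with ATRA, near the shares of all genes tested (21.3% and 27.4%). DDX21, a helicase that acts on ribosomal DNA transcription and processing, averaged 546 ± 8.9 FPM with ATRA and 499 ± 18 FPM with DMSO (SD, n = 3 each), a difference of 0.13 ± 0.036 (SE, adjusted p = 0.00971). LYAR, a zinc finger protein of the nucleolus, had 47.9 FPM in the ATRA+Cfz library, 59.5, 58.2 and 55.5 FPM in the ATRA libraries, 65.3 FPM in the Cfz library, and 63.2, 65.4 and 72.2 FPM in the DMSO libraries. All ATRA libraries were below all DMSO libraries, the ATRA+Cfz library was lowest, and the Cfz library lay within the DMSO range. LYAR fell with ATRA, at -0.21 ± 0.055 (SE, adjusted p = 0.00747), and was lower in the ATRA+Cfz library, at -0.48 ± 0.077 (SE, adjusted p = 0.000297). Its lanes differed beyond sampling noise in ATRA 2 (45.3 to 69.8 FPM). NCL (nucleolin), a histone chaperone and RNA-binding protein, averaged 1093 ± 22 FPM with ATRA and 1157 ± 37 FPM with DMSO (SD, n = 3 each). It was called lower in the ATRA+Cfz library, at -0.21 ± 0.052 (SE, adjusted p = 0.00535) against DMSO libraries and at -0.29 ± 0.063 (SE, adjusted p = 0.00461) against the Cfz library. The call against DMSO was lost with TMM scaling, edgeR and DESeq2 (adjusted p = 0.0527 to 0.0696). NPM1 (nucleophosmin), which shuttles between nucleolus and cytoplasm, had no call in any comparison, with an ATRA difference of 0.0098 ± 0.043 (SE, adjusted p = 0.874) and many pseudogenes that could share its reads, the highest at 1.52 FPM.

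**Figure D4:**
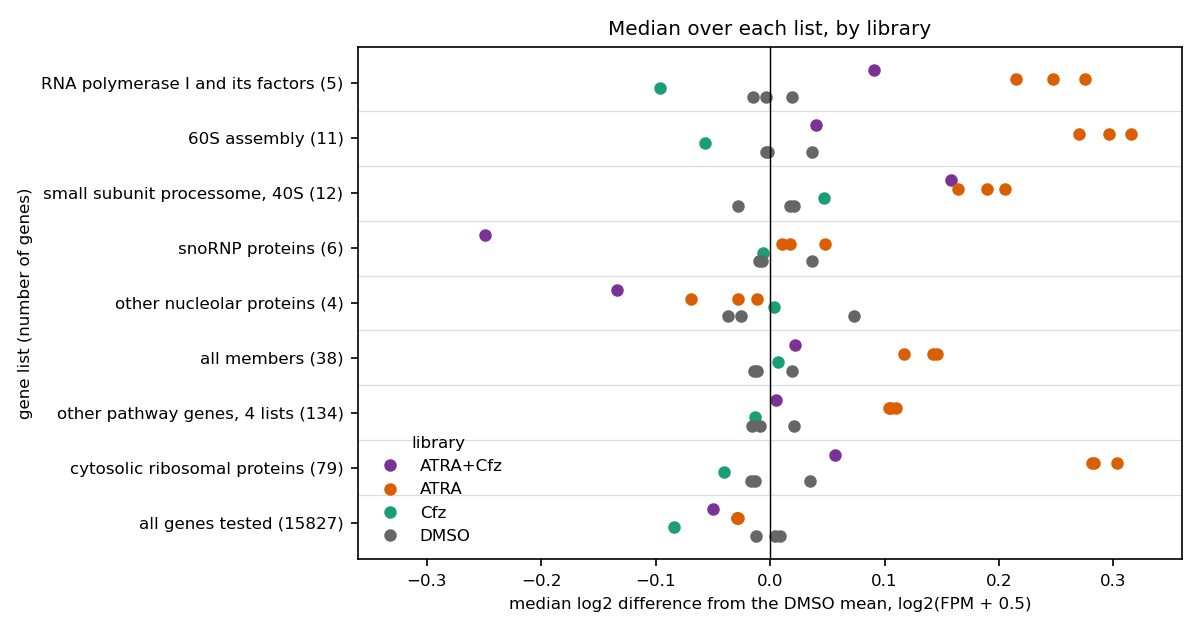
Median log2 difference from the DMSO mean (x axis, log2(FPM + 0.5)) over each gene list (y axis, with the number of genes) in each ATRA+Cfz, ATRA, Cfz and DMSO library. The 3 ATRA libraries sit together for every list, at 0.12 to 0.15 over all 38 members and 0.27 to 0.315 over the 60S genes, and the ATRA+Cfz library lies at 0.022 and 0.04 for these lists.

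After the pulse the ATRA difference lay lower for most of the set, while few single genes were called. The difference between ATRA+Cfz and Cfz lay below the difference between ATRA and DMSO for 35 of the 38 members, with a median gap of -0.20 beside 0.010 over all genes tested. The exceptions were RRN3 at 0.062, HEATR1 at 0.055 and DDX18 at 0.025. Across the 38 genes these 2 sets of differences, which share no library, had a Pearson r of 0.79 and a Spearman rho of 0.77, given as a description because genes of 1 library are not independent replicates. Taken singly, 0 members were called with a larger and 2 with a smaller ATRA difference after the pulse, against 0.992% and 1.31% of all genes tested. With edgeR the counts were 0 and 1, with DESeq2 0 and 1, and at limma's unadjusted p under 0.05 no member had a larger one. Of all calls in that comparison 43.1% were on the larger side, against 22.3% with median-ratio scaling and 22.6% with DESeq2. The median gap of the members lay between -0.25 and -0.19 under the alternatives, and 34 to 36 members were below 0. The shift was not particular to the members. The gap was below 0 for 104 of 134 further genes of the pathway (median -0.125). The same held for all 79 cytosolic ribosomal protein genes (median -0.189). Without DMSO 3, 21 members were called with a smaller and 0 with a larger ATRA difference after the pulse, against 6.54% and 6.01% of all genes. Every value after the pulse rests on 1 ATRA+Cfz and 1 Cfz library.

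The called pair was NOP2, at -0.50 ± 0.098 (SE, adjusted p = 0.0299), and MRTO4, at -0.37 ± 0.081 (SE, adjusted p = 0.045). NOP2 exceeded DMSO in each treatment, and the ATRA+Cfz library was no higher than the Cfz library, with a difference of -0.029 ± 0.085 (SE, adjusted p = 0.831) between them and a 95% interval of -0.22 to 0.16. On the sum of NOP2 and AC006064.6 the gap was -0.24. MRTO4 was called higher with ATRA than with DMSO, a call lost under 7 of the 18 alternatives. Its ATRA+Cfz library was instead lower than the Cfz library, at -0.25 ± 0.07 (SE, adjusted p = 0.0175), a call lost with DESeq2. RRP12, at -0.32 ± 0.082 (SE, adjusted p = 0.0639), RRS1, at -0.30 ± 0.081 (SE, adjusted p = 0.0783), and FBL, at -0.25 ± 0.071 (SE, adjusted p = 0.0941), had the next smallest p and were not called.

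**Figure D5:**
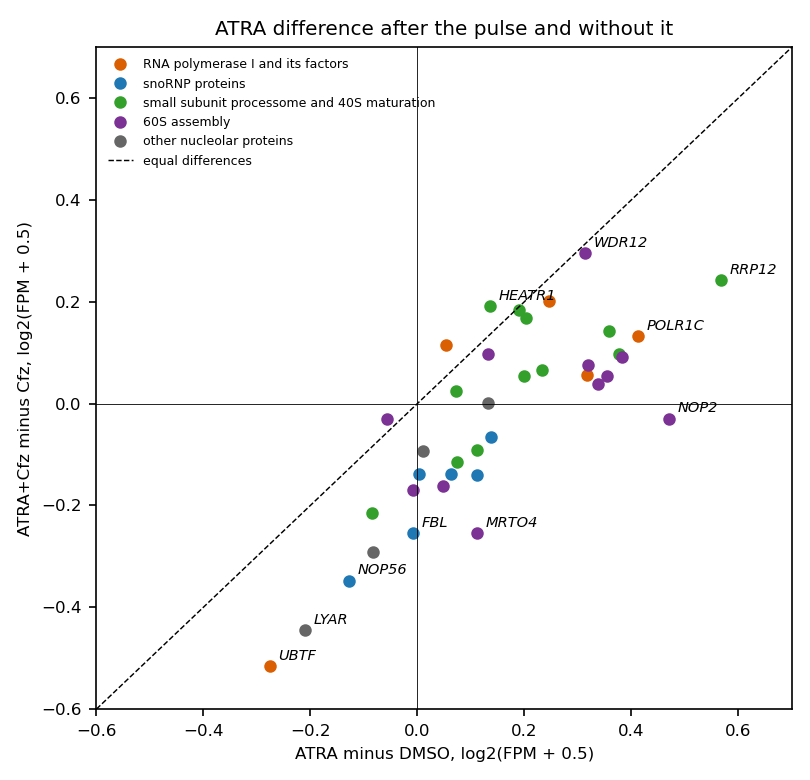
ATRA difference after the carfilzomib pulse (y axis, ATRA+Cfz minus Cfz) against the ATRA difference without it (x axis, ATRA minus DMSO), both in log2(FPM + 0.5), for the 38 members, coloured by role. Of the 38 points 35 lie below the dashed line of equal differences, and HEATR1 is 1 of the 3 above it.

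The rest of the pathway was read from 4 lists of 134 further genes with the same roles. With ATRA, 61 of the 134 rose (45.5%) and 11 fell (8.21%), against 21.3% and 27.4% of all genes, with a median difference of 0.11. EdgeR gave 7 falls and DESeq2 4. By role, 25 of 49 further small subunit genes rose and 3 fell, 27 of 55 further large subunit genes rose and 4 fell, and 6 of 14 further snoRNP genes rose and none fell (1 at limma's unadjusted p under 0.05, and 0 by edgeR and DESeq2). The 16 further genes of RNA polymerase I and its factors gave 3 rises and 4 falls, with a median difference of -0.066. They include POLR2E, POLR2F, POLR2H, POLR2K and POLR2L, subunits that RNA polymerases I, II and III share. In the ATRA+Cfz library 1 of the 16 was higher and 9 were lower than in DMSO libraries, with a median difference of -0.257. By edgeR these counts were 2 and 7, and by DESeq2 0 and 7. Of the 134, 34 were higher and 33 lower in the ATRA+Cfz library than in DMSO libraries, against 20.0% and 30.5% of all genes. By edgeR these counts were 49 and 21, and by DESeq2 33 and 17. Against ATRA libraries 9 were higher and 47 lower, beside 10.6% and 20.2% of all genes. This was 12 and 34 by edgeR, and 5 and 16 by DESeq2. ZNF593, a factor of late 60S maturation, had 13.1 FPM in the ATRA+Cfz library, 16.3, 14.4 and 15.1 FPM in the ATRA libraries, 10.9 FPM in the Cfz library, and 10.8, 10.1 and 9.5 FPM in the DMSO libraries, and its ATRA difference was 0.56 ± 0.088 (SE, adjusted p = 0.000221). All its ATRA libraries lay above all DMSO libraries.

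TCOF1 (treacle), which works with UBTF at the ribosomal DNA, had 76.8 FPM in the ATRA+Cfz library, 112, 115 and 114 FPM in the ATRA libraries, 124 FPM in the Cfz library, and 146, 142 and 146 FPM in the DMSO libraries. As for UBTF, the groups did not overlap and the ATRA+Cfz library was lowest, at -0.91 ± 0.05 (SE, adjusted p = 4.86e-08) against DMSO. WDR74, which acts in release of factors from the 60S precursor, had 74.1 FPM in the ATRA+Cfz library, 61.1, 59.3 and 63.1 FPM in the ATRA libraries, 70.3 FPM in the Cfz library, and 43.7, 44.3 and 48.0 FPM in the DMSO libraries, and was higher by 0.63 ± 0.07 (SE, adjusted p = 0.000108) in the Cfz library and by 0.71 ± 0.07 (SE, adjusted p = 6.23e-06) in the ATRA+Cfz library. NOC4L, a processome gene, had 4.17 FPM in the ATRA+Cfz library, 6.49, 6.55 and 5.54 FPM in the ATRA libraries, 6.83 FPM in the Cfz library, and 8.56, 6.77 and 7.16 FPM in the DMSO libraries, with a difference of -0.77 ± 0.18 (SE, adjusted p = 0.00327) in the ATRA+Cfz library. The ATRA+Cfz library was below all others for NOC4L, while its ATRA and DMSO libraries did not overlap.

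The cytosolic ribosomal protein genes were also followed, and most rose with ATRA. Of 79 genes, 77 rose with ATRA and none fell, against 21.3% and 27.4% of all genes, with a median difference of 0.29. None fell at limma's unadjusted p under 0.05 or by edgeR or DESeq2. In the ATRA+Cfz library 53 were lower than in ATRA libraries (20.2% of all genes) and none was higher (10.6% of all genes), by limma's adjusted or unadjusted p, edgeR or DESeq2. In the same library 26 were higher and 6 lower than in DMSO libraries, against 20.0% and 30.5% of all genes. Counts were 40 and 3 by edgeR, and 35 and 3 by DESeq2. MYC, a transcription factor known to drive ribosome biogenesis genes, had a log2 difference from DMSO of 0.75 ± 0.043 (SE, adjusted p = 7.06e-08) in the ATRA+Cfz library, of 0.99 ± 0.03 (SE, adjusted p = 5.82e-10) with ATRA and of -0.0008 ± 0.043 (SE, adjusted p = 0.992) in the Cfz library. Its part in the members' differences was not tested.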

How the data were processed

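The deposited values are FPM, a CPM unit (fragments scaled to a sum of 1000000), computed by the authors for each of the 32 lane columns, of which 4 make up each of the 8 libraries. Per the submitters' processing notes the tools were fastp 0.20.0, kallisto 0.46.2 and DESeq2; no source used here gives the genome build, annotation or strand setting. Each gene ID was used once (24402 lines, 24249 IDs), lanes were averaged, and whole reads were recovered for 100% of values within 0.01 read. A floor of 3 reads was 0.175 to 0.212 FPM.

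Log2(FPM + 0.5) was tested in R 4.3.3 by limma 3.58.1 with its trend option, all 8 libraries in 1 fit (4 residual and 7.21 prior degrees of freedom), and Benjamini-Hochberg adjustment over 15827 genes whose mean of group means was at least 0.5 FPM. On recovered reads, edgeR 4.0.16 called 3747 genes higher and 4001 lower with ATRA; DESeq2 1.42.0 was the other count test. The limma fit was tested on simulated data in which all libraries varied alike. The simulation is therefore no check of the spread assumed for the lone ATRA+Cfz and Cfz libraries. The main fit did not pair the ATRA and DMSO libraries by replicate number.

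The 38 members, their roles and all lists were chosen with earlier results of these data known. Values of every library are given for the RNA polymerase I genes, for up to 6 called members in each direction per comparison with DMSO, and for RRS1 and MRTO4, which were chosen after their values were seen. Of further genes the 3 largest called changes in each direction are named, except for a result that is not reported here. Gene overlaps were read from GENCODE 29, and symbols from the table. Alternatives covered pseudocounts, filters, scalings, other tools, each left-out library and a replicate block, and scaling without mitochondrial genes was added after seeing the data.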

Additional observations from a re-analysis of the deposited data

Results flagged for a closer look

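For 2 members the ATRA difference after the carfilzomib pulse was called smaller than the ATRA difference without it, by limma's interaction term. The gap was -0.4995 on the log2 scale for NOP2 (adjusted p = 0.0299), with an ATRA difference of -0.029 after the pulse and 0.47 without it. This call was lost when DMSO 2 or any ATRA library was left out (adjusted p = 0.0575 to 0.0983), and the sum of NOP2 and the overlapping AC006064.6 gave -0.24, which was not tested. For MRTO4 the gap was -0.3661 (adjusted p = 0.045), with an ATRA difference of -0.25 after the pulse and 0.11 without it. This call was lost under 8 of the 16 alternatives (adjusted p = 0.0517 to 0.127). Both rest on 1 ATRA+Cfz and 1 Cfz library.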

How the results depend on the processing

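Of the calls among the 38 members, 20 of 25 with ATRA, 15 of 25 with ATRA+Cfz and 2 of 6 with Cfz against DMSO held in every alternative, as did 6 of 11 for ATRA+Cfz against Cfz, 8 of 16 for ATRA+Cfz against ATRA and 0 of 2 for the gap between the ATRA differences with and without the pulse. No call changed its direction. With DESeq2 the ATRA calls of NOP56 and LYAR, the Cfz call of FBL, the ATRA+Cfz calls of POLR1C and RRP9 against DMSO and those of BYSL and MRTO4 against ATRA were also lost. So was the ATRA+Cfz call of MRTO4 against Cfz. The count lower with ATRA (3) was 1 with DESeq2 and 3 to 5 with 1 library left out. For Cfz, the count higher (2) was 7 with median-ratio scaling, 6 with TMM scaling and edgeR, 4 with DESeq2 and without mitochondrial genes, and 2 to 10 with 1 library left out. The count lower for Cfz (4) was 2 without a filter, 1 with median-ratio or TMM scaling and edgeR, 0 with DESeq2, and 1 to 8 with 1 library left out. For ATRA+Cfz against DMSO, the count lower (13) was 8 with TMM scaling and edgeR and 7 with DESeq2. For ATRA+Cfz against Cfz, the count higher (4) was 7 with TMM scaling and edgeR, 1 with DESeq2 and 2 to 8 with 1 library left out, and the count lower (7) was 7 to 12. For ATRA+Cfz against ATRA, the count lower (16) was 8 with DESeq2 and 13 to 25 with 1 library left out, and 45.3% of all calls were higher with edgeR against 34.4% here. For the gap, the count of smaller ATRA differences (2) was 5 with median-ratio scaling, 1 without a filter, with edgeR and with DESeq2, and 0 to 21 with 1 library left out. The highest of each range came without DMSO 3, and the cause was not tested. Over all genes, leaving out DMSO 3 raised the calls of the gap to 951 larger and 1035 smaller, against 157 and 207. A replicate block gave 21 higher and 3 lower with ATRA, against 22 and 3. Same-numbered libraries had correlations of -0.00584, -0.00206 and 0.00555, so no pairing by number was seen in the values. Correlations over all genes tested cannot show how the libraries were handled. DESeq2 gave no adjusted p for 3 member values. With 1 ATRA+Cfz and 1 Cfz library, their differences rest on the spread of the other 6 libraries, and the read floor covers counting error only.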

Other observations

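Genes of RNA polymerase III, which transcribes 5S ribosomal RNA and transfer RNAs, were called in both directions. Of 22 genes, 5 rose and 3 fell with ATRA, against 21.3% and 27.4% of all genes, so that the share that rose was near that of all genes. In the Cfz library 3 were higher and 2 lower than in DMSO libraries, against 7.94% and 17.0% of all genes, and in the ATRA+Cfz library 6 were higher and 5 lower, against 20.0% and 30.5%. POLR3D, a subunit of the polymerase, had 87.0 FPM in the ATRA+Cfz library, 84.7, 85.4 and 83.7 FPM in the ATRA libraries, 62.3 FPM in the Cfz library, and 57.4, 57.6 and 59.1 FPM in the DMSO libraries. ATRA and ATRA+Cfz libraries lay above all others, with a difference of 0.54 ± 0.039 (SE, adjusted p = 4.56e-07) with ATRA. BRF2, an initiation factor for U6-type promoters, had 32.5 FPM in the ATRA+Cfz library, 15.5, 16.8 and 16.7 FPM in the ATRA libraries, 26.0 FPM in the Cfz library, and 11.3, 11.5 and 11.5 FPM in the DMSO libraries. It was higher by 1.15 ± 0.099 (SE, adjusted p = 1.54e-05) in the Cfz library and by 1.47 ± 0.099 (SE, adjusted p = 2.57e-07) in the ATRA+Cfz library. POLR3K, a small subunit of the polymerase, had 18.2 FPM in the ATRA+Cfz library, 32.2, 32.3 and 32.9 FPM in the ATRA libraries, 21.1 FPM in the Cfz library, and 34.0, 31.6 and 31.8 FPM in the DMSO libraries, and was lower in the Cfz library, at -0.61 ± 0.079 (SE, adjusted p = 0.000291), and in the ATRA+Cfz library, at -0.81 ± 0.079 (SE, adjusted p = 4.91e-06). Its ATRA libraries lay within the DMSO range.

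Genes of the RNA exosome, which trims ribosomal RNA precursors, gave 4 rises and 4 falls among 14 with ATRA, against 21.3% and 27.4% of all genes. Of the 14, 1 was higher and 5 lower in the Cfz library than in DMSO libraries (7.94% and 17.0% of all genes), and 1 was higher and 6 lower in the ATRA+Cfz library (20.0% and 30.5%), with a median difference of -0.20. In the ATRA+Cfz library edgeR gave 3 higher and 6 lower, and DESeq2 2 and 4. EXOSC5, a subunit of the ring, had 17.3 FPM in the ATRA+Cfz library, 29.5, 32.5 and 28.2 FPM in the ATRA libraries, 15.2 FPM in the Cfz library, and 21.6, 19.4 and 20.9 FPM in the DMSO libraries. It rose with ATRA by 0.53 ± 0.072 (SE, adjusted p = 8.15e-05), and the ATRA+Cfz and Cfz libraries lay below all DMSO libraries. EXOSC8, EXOSC9 and EXOSC10 fell with ATRA, with log2 differences of -0.50 for EXOSC8 (adjusted p = 5.66e-05), -0.40 for EXOSC9 (adjusted p = 5.34e-05) and -0.43 for EXOSC10, the nuclear exonuclease (adjusted p = 1.15e-05). EXOSC1, a subunit of the cap, had 58.4 FPM in the ATRA+Cfz library, 43.4, 42.3 and 39.4 FPM in the ATRA libraries, 47.8 FPM in the Cfz library, and 30.3, 30.6 and 33.7 FPM in the DMSO libraries. All libraries given ATRA, carfilzomib or both lay above the DMSO libraries, with 0.59 ± 0.083 (SE, adjusted p = 0.000491) in the Cfz library and 0.88 ± 0.083 (SE, adjusted p = 4.13e-06) in the ATRA+Cfz library. C1D, an exosome cofactor, was lower in the Cfz library, at -0.78 ± 0.1 (SE, adjusted p = 0.000354).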
